A study of Mus musculus with 8 samples.

Results

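The Hox cluster genes are the homeobox genes of the HoxA, HoxB, HoxC and HoxD clusters. They were taken here as every row whose mouse symbol is Hoxa, Hoxb, Hoxc or Hoxd followed by digits alone, which gave 38 of the 37558 genes in the deposited count table, 11 in HoxA on chromosome 6, 10 in HoxB on chromosome 11, 9 in HoxC on chromosome 15 and 8 in HoxD on chromosome 2. The annotation holds 39 such symbols. Hoxd4 matched no row by its identifier and was not analysed here. RNA came from cultures of P19, a mouse embryonal carcinoma line that can form neurons or muscle in culture, after lentiviral delivery of a transgene. The groups were GFP as control, the muscle-determining factor MyoD, the neurogenic factor NeuroD2, the MD(ND2bHLH) chimera (MyoD carrying the DNA-binding and dimerisation domain, bHLH, of NeuroD2), and the chimera's WC and WCS mutants, whose changes the labels do not define. The chimera and WCS were each sequenced a second time from cells infected at a multiplicity of infection (MOI) of 100, and the labels of the other 6 libraries give no MOI. Every culture was infected with polybrene and then moved to Neurobasal medium with B27, a neuronal medium, GFP and MyoD included. Each of the 8 groups had 1 library, so no value below has a replicate, and every interval covers counting error only.

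Hox genes encode homeodomain transcription factors that give cells their position along the head-to-tail axis. Within a cluster the genes with low paralog numbers lie at the 3′ end and are active in the hindbrain and anterior body, while those with high numbers act progressively further back. In embryonal carcinoma and embryonic stem cells the clusters are largely held silent by Polycomb complexes, and retinoic acid, Wnt and Fgf signals open them in developing neural tissue. In the spinal cord their combinations help to specify neuron subtypes.

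Total counts ran from 26410500 in the chimera to 43984066 in GFP, so that 3 counts correspond to 0.073 to 0.115 CPM, the depth-scaled count with TMM factors over the 8 libraries. Myod1 reads followed the labels, at 0.681 CPM in GFP, 0.804 CPM in NeuroD2 and 77.3 to 857 CPM elsewhere, and were higher at MOI 100 than without it in the chimera (555 against 116 CPM) and in WCS (857 against 77.3 CPM). The markers of P19 cells were detected in GFP, with Pou5f1, the pluripotency factor Oct4, at 1230 CPM. One difference among the libraries runs across the groups. Rn7s6, a 7S RNA gene chosen after its values were seen, was at 16.3 CPM in GFP, 13.5 in MyoD, 13.0 in WC and 14.4 in WCS, whereas the chimera, both MOI 100 libraries and NeuroD2 had between 0.565 and 1.28 CPM. Rmrp, an RNA without a poly(A) tail, divided the same libraries, at 1.65 to 2.15 CPM against 0 to 0.113 CPM, and so did the histone gene Hist1h1e, at 3.05 to 5.34 CPM against 0.245 to 0.829 CPM. The labels name both a column kit and Trizol for RNA extraction without saying which served which library. Of the 24 Hox genes with at least 10 counts in at least 1 library, Hoxb1 and Hoxb2 were higher in all 4 libraries with low Rn7s6 than in any of the other 4 (6.31% of all genes with 10 counts), and Hoxd10 and Hoxd11 were higher in all 4 with high Rn7s6 (7.88%). Hoxb1 reached 10 counts only in libraries with low Rn7s6, Hoxd10 only in MyoD and Hoxd11 only in WCS, so these 3 entered the count through the side where they are high. The part of this difference in the results was not tested. Where a comparison within one side of it exists, its values are given beside the result that crosses it.

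The promoters below belong to the genes that carry the main differences. Hoxd1, Hoxd8 and Hoxd9 are the genes that reached 5 CPM, all in the MyoD library. Hoxb8 and Hoxb1, chosen after their values were seen, stand for the HoxB genes higher in NeuroD2 than in GFP. bHLH factors bind the E-box CANNTG. MyoD is known to favour CAGCTG and CAGGTG, and NeuroD2 CAGATG and CAGCTG. Each sequence runs from 250 bases before to 50 bases after the RefSeq start on GRCm38.p6, a later build than the mm9 of the counts, with E-boxes on either strand in capitals.
Hoxd1, chr2:74762730-74763029, plus strand: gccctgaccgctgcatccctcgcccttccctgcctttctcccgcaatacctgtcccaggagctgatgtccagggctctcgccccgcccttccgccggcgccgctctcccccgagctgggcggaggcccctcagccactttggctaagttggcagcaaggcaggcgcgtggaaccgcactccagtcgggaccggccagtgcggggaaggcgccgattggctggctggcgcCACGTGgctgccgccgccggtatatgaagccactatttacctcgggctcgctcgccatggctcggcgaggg
Hoxd8, chr2:74704365-74704664, plus strand: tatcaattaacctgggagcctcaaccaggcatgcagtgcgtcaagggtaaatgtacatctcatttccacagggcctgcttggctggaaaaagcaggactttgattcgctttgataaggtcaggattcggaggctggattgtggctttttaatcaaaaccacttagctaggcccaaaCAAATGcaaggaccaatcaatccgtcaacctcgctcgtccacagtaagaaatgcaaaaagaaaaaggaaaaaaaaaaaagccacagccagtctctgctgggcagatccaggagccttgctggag
Hoxd9, chr2:74697513-74697812, plus strand: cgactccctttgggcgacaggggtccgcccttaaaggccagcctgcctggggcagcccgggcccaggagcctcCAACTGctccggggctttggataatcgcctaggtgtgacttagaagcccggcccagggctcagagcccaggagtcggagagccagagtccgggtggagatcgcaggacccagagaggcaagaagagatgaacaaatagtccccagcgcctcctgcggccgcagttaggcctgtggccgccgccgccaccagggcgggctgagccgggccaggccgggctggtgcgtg
Hoxb8, chr11:96281655-96281954, plus strand: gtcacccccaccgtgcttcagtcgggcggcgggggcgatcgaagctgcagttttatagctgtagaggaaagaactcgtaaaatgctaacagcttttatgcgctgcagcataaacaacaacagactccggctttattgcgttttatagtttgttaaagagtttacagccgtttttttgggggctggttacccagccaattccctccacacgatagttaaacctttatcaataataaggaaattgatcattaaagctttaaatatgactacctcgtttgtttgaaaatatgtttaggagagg
Hoxb1, chr11:96365508-96365807, plus strand: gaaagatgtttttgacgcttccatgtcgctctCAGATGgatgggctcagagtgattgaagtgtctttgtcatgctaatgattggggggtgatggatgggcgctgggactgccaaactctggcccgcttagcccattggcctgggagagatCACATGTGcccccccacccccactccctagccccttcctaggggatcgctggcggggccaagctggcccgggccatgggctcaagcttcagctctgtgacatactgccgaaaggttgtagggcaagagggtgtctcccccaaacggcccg

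Hoxd1 holds 1 E-box, CACGTG, starting 21 bases before the RefSeq start, Hoxd8 holds CAAATG at 74 bases before it, and Hoxd9 holds CAACTG at 177 bases before it. Hoxb8 holds none in this window. Hoxb1 holds CAGATG at 218 bases before the start and an overlapping CACATG and CATGTG at 100 and 98 bases before it. CAGCTG is therefore in none of the 5 windows, nor is CAGGTG. Over the 23 RefSeq promoters found for 21 of the Hox genes, CANNTG occurs in 16, CAGCTG in 4, CAGATG in 3 and CAGGTG in 0, against 72.3%, 16.3%, 17.2% and 20.2% of all 32851 promoters in the table. These matches describe letters only and say nothing of binding.

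Hox transcripts were scarce in every library. The sum over the 38 genes was 16.8 CPM in GFP, 46.4 in MyoD, 11.6 in the chimera, 20.1 in the chimera at MOI 100, 15.9 in WC, 16.0 in WCS, 39.5 in WCS at MOI 100 and 24.8 in NeuroD2. MyoD and WCS at MOI 100 therefore stood highest, but through different clusters. HoxD held 86.2% of the Hox counts in MyoD (Clopper-Pearson 95% interval 84.1% to 88.1%), 66.2% in GFP (62.6% to 69.8%) and 23.0% in NeuroD2 (19.9% to 26.2%). HoxB held 7.36% in MyoD, 11.2% in GFP, 50.4% in NeuroD2 (46.7% to 54.2%) and 51.4% in WCS at MOI 100 (48.6% to 54.2%). Of the 38 genes, 15 reached 1 CPM somewhere, 3 reached 5 CPM, and 14 had under 10 counts in every library. The number at 1 CPM or more was 4 in GFP, 6 in MyoD, 2 in the chimera, 8 in the chimera at MOI 100, 5 in WC, 6 in WCS, 13 in WCS at MOI 100 and 9 in NeuroD2. Scaled by exon length, Hoxd1 was the highest gene in GFP, at 2.0 CPM per kb ahead of Hoxd8 at 1.07, and Hoxd8 the highest in MyoD, at 7.14 ahead of Hoxd1 at 5.44. In WCS at MOI 100 Hoxb7 led, at 2.78 CPM per kb ahead of Hoxd8 at 1.75. Exon lengths came from an annotation of another build.

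**Figure D1:**
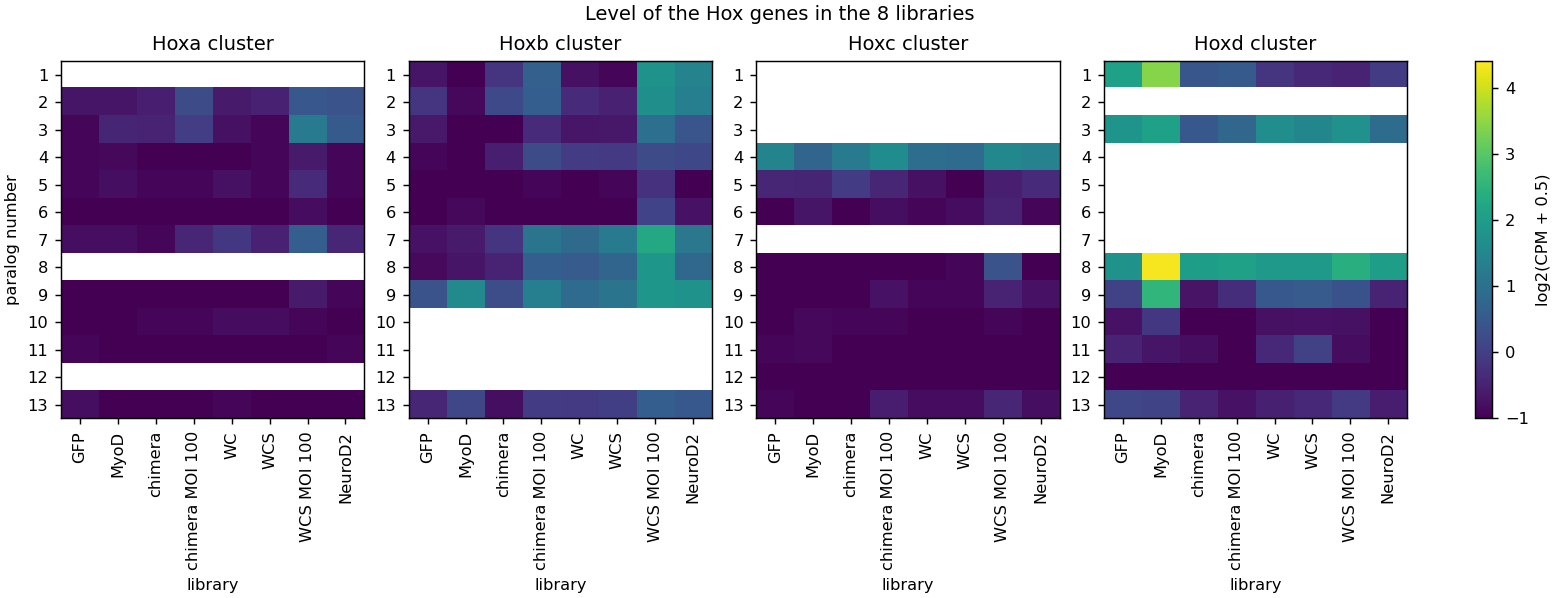
Level of the Hox genes as log2(CPM + 0.5), by cluster (panels), paralog number (rows) and library (columns, 1 library a group). White cells hold no gene that is reported. The brightest cell is Hoxd8 in MyoD at 19.6 CPM, and the HoxB panel is brightest in WCS at MOI 100, where Hoxb7 stood at 4.29 CPM.

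**Figure D2:**
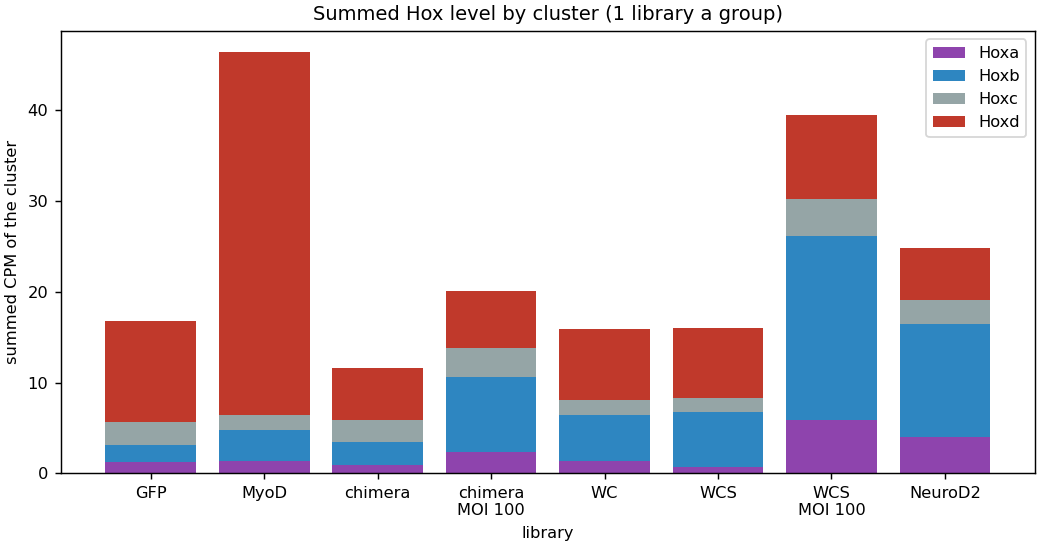
Summed CPM of the genes of each cluster in each of the 8 libraries, stacked (1 library a group). HoxD made up 40.0 of 46.4 CPM in MyoD, and HoxB 20.3 of 39.5 CPM in WCS at MOI 100.

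MyoD was set against GFP to see which Hox genes the muscle factor moves. In HoxD the anterior gene Hoxd1 and the more posterior Hoxd8 and Hoxd9 were higher, while the summed HoxA level was 1.38 against 1.29 CPM and the summed HoxC level 1.61 against 2.5 CPM. The summed HoxB level was 3.42 against 1.87 CPM, a ratio of 1.82 (1.33 to 2.51). Hoxd8 (ENSMUSG00000027102), a gene of trunk and limb patterning, stood at 19.6 CPM in MyoD against 2.94 in GFP, 3.58 in the chimera, 3.71 in the chimera at MOI 100, 3.31 in WC, 3.26 in WCS, 4.79 in WCS at MOI 100 and 3.49 in NeuroD2. The 7 libraries other than MyoD thus lay within 2.94 to 4.79 CPM. Hoxd9 (ENSMUSG00000043342), a gene of posterior trunk and limb identity, stood at 5.41 CPM in MyoD against 0.535 in GFP, 0.113 in the chimera, 0.312 in the chimera at MOI 100, 0.899 in WC, 0.951 in WCS, 0.783 in WCS at MOI 100 and 0.21 in NeuroD2. MyoD was again the one high library. In MyoD over GFP Hoxd8 was 6.65-fold higher (95% interval of the ratio 5.45 to 8.18) and Hoxd9 10.1-fold higher (6.43 to 16.7), and both met the size rule of at least 4-fold on log2(CPM + 0.5) with 5 CPM in the higher library, which 2.75% of all measured genes met in that direction and 0.92% in the other, with 0 Hox genes lower. Hoxd1 was 2.72-fold higher (2.22 to 3.35). Hoxd8 and Hoxd9 reached 5 CPM only in MyoD, so each met that minimum through the library where it is high. Hoxd9 also reached the 1 CPM of a measured gene only there.

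By a rule suited to low counts, chosen after the data were seen, a gene was called when the whole interval of its ratio lay past 2-fold and it had 10 counts in at least 1 library. That rule called Hoxd1, Hoxd8 and Hoxd9 higher in MyoD over GFP, 3 of 24 genes against 7.91% of all genes, and 0 lower, against 5.7%. The median log2 ratio of the 24 genes was 0.00, beside -0.03 over all genes. The summed HoxD level was 40.0 against 11.1 CPM, a ratio of 3.6 (3.22 to 4.03), and both libraries lie on the same side of the Rn7s6 difference. Other HoxD genes gave smaller values. Hoxd3 stood at 3.76 against 2.99 CPM (ratio 1.26, 0.955 to 1.65) and Hoxd13 at 0.576 against 0.608 CPM. Hoxd10 stood at 0.422 against 0.0973 CPM, from 11 and 4 counts. MyoD over NeuroD2, which crosses the Rn7s6 difference, gave Hoxd1, Hoxd8 and Hoxd9 higher by the size rule (2.64% of all genes) and 0 lower (4.41%), with Hoxd9 at a ratio of 25.8 (11.6 to 71.6) and Hoxd8 at 5.61 (4.52 to 7.02). Hoxd1, Hoxd8 and Hoxd9 reached 5 CPM, and Hoxd9 also 1 CPM, only in MyoD, the higher library of this pair. The interval rule called 4 higher in MyoD over NeuroD2 (6.79%), these and Hoxd10, which reached 10 counts only in MyoD. It called 7 lower (10.4%), Hoxa2, Hoxb1, Hoxb2, Hoxb3, Hoxb4, Hoxb7 and Hoxb8. MyoD was also the library with skeletal muscle RNA. The summed level of 6 of 6 muscle markers was 9870 CPM there, 985 in the chimera, 1600 in the chimera at MOI 100 and 16.1 to 49.3 in the other 5 libraries, with Myog at 0 counts in WCS. Hoxd8 in both chimera libraries, at 3.58 and 3.71 CPM, lay with the 5 libraries low in muscle RNA. In bulk RNA fewer cells with a transcript and less transcript per cell cannot be told apart, and the part of the muscle cells in the HoxD values was not tested.

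**Figure D3:**
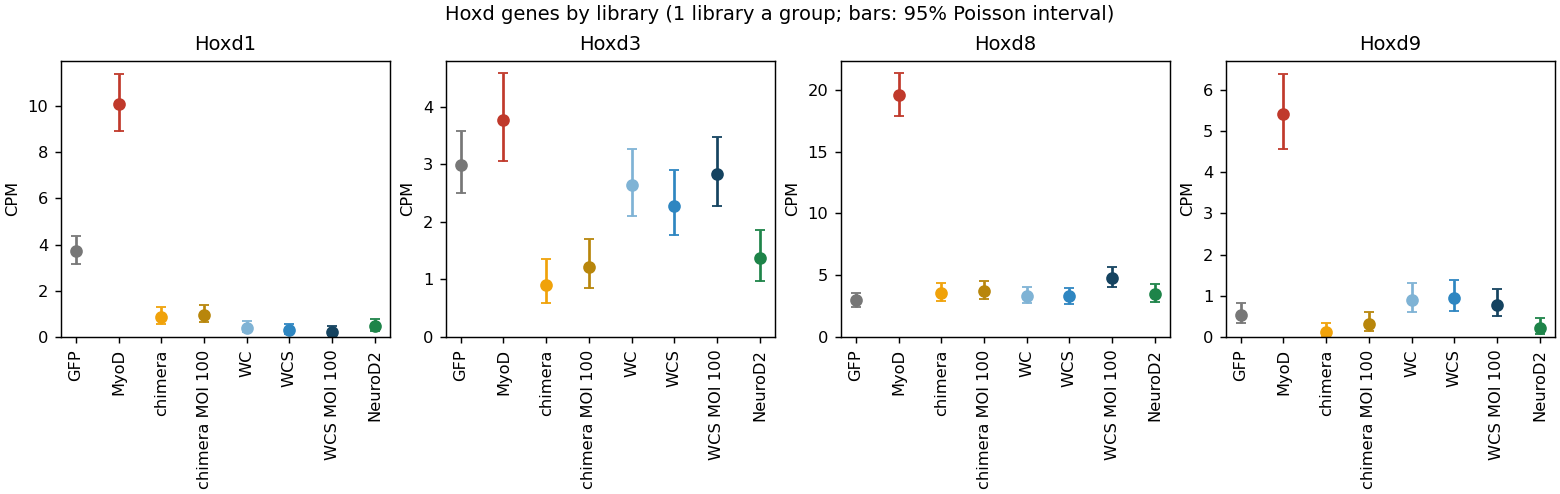
CPM of Hoxd1, Hoxd3, Hoxd8 and Hoxd9 in each library (points, 1 library a group) with the 95% Poisson interval of the count (bars). Hoxd8 and Hoxd9 stand apart in MyoD, at 19.6 and 5.41 CPM, and Hoxd1 is under 1 CPM in the 6 libraries other than GFP and MyoD.

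Hoxd1 was lower in the neurogenic libraries than in GFP and MyoD, unlike Hoxd8. Hoxd13 was also highest in GFP and MyoD, at 0.608 and 0.576 CPM against 0.104 to 0.439 CPM elsewhere. It had at most 25 counts in a library, and its order was not a clear division. MyoD had 15 counts (Poisson interval 0.322 to 0.95 CPM) and WCS at MOI 100 had 14 (0.24 to 0.736 CPM), so these intervals overlapped. The share of all genes with this order was not counted. Hoxd1 (ENSMUSG00000042448), a gene of the anterior end of the cluster that is known in the mouse for sensory neurons, stood at 3.72 CPM in GFP, 10.1 in MyoD, 0.866 in the chimera, 0.937 in the chimera at MOI 100, 0.385 in WC, 0.272 in WCS, 0.219 in WCS at MOI 100 and 0.454 in NeuroD2. All 6 libraries given a NeuroD2 bHLH domain were below GFP and MyoD, an order whose share over all genes was not counted. Against GFP it was 4.29-fold lower in the chimera (2.76 to 6.98), 3.97-fold in the chimera at MOI 100 (2.63 to 6.22), 9.66-fold lower in WC (5.37 to 19.1), 13.7-fold lower in WCS (6.78 to 32.3), 17.0-fold in WCS at MOI 100 (8.04 to 42.9) and 8.19-fold in NeuroD2 (4.65 to 15.7). These 6 comparisons share the GFP library, and WC and WCS lie on its side of the Rn7s6 difference. Hoxd3 shares exon bases with Gm28230 and Hoxd4 on its own strand, and with its antisense neighbours Haglr and Hoxd3os1. Hoxd4 is the gene that matched no row. Hoxd3 stood at 2.99 CPM in GFP, 3.76 in MyoD, 0.904 in the chimera, 1.21 in the chimera at MOI 100, 2.63 in WC, 2.28 in WCS, 2.82 in WCS at MOI 100 and 1.36 in NeuroD2. It was low in both chimera libraries and in NeuroD2, and 3.31-fold lower in the chimera than in GFP (2.12 to 5.36). Haglr, a noncoding RNA transcribed from HoxD, stood at 1.75 CPM in GFP and 2.11 in MyoD against 0.264 to 0.564 elsewhere. Pluripotency and neural crest markers were highest in GFP and MyoD too. The 5 of 5 pluripotency markers summed to 2650 and 1140 CPM there against 389 to 1080 elsewhere, and 2 of 3 neural crest markers measured to 10.1 and 13.7 CPM against 2.43 to 4.11, with Sox10 at 0 counts in MyoD. Their part in the Hoxd1 values was not tested.

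NeuroD2 over GFP was the comparison for the neurogenic factor, and there HoxB genes were higher along most of the cluster. HoxB summed to 1.87 CPM in GFP and 12.5 CPM in NeuroD2, a ratio of 6.68 (5.21 to 8.66), while HoxD was 1.95-fold lower (1.63 to 2.35), HoxA 3.09-fold higher (2.21 to 4.37) and HoxC at a ratio of 1.05 (0.766 to 1.42). By the interval rule 9 of 24 genes were higher, against 12.9% of all genes, and 1, Hoxd1, was lower, against 7.45%. The 9 were Hoxa2 and Hoxa3 of HoxA and Hoxb1, Hoxb2, Hoxb3, Hoxb4, Hoxb7, Hoxb8 and Hoxb9. None reached the 5 CPM that the size rule asks for, so that rule called 0 genes, against 4.37% higher and 1.6% lower in the whole table. The median log2 ratio of the 24 genes was 0.33, beside 0.02 over all genes.

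Hoxb1 (ENSMUSG00000018973), a hindbrain gene that marks the segment of the facial motor neurons and responds to retinoic acid, stood at 0.122 CPM in GFP, 0 in MyoD, 0.377 in the chimera, 1.08 in the chimera at MOI 100, 0.0963 in WC, 0.034 in WCS, 2.91 in WCS at MOI 100 and 2.17 in NeuroD2. Hoxb2, also a hindbrain gene, had the same order at the top, at 0.389 CPM in GFP, 0.0384 in MyoD, 0.64 in the chimera, 1.04 in the chimera at MOI 100, 0.289 in WC, 0.204 in WCS, 2.69 in WCS at MOI 100 and 2.03 in NeuroD2. Both were low in WC and WCS. In NeuroD2 over GFP Hoxb1 was 17.8-fold higher (7.24 to 56.8) and Hoxb2 5.21-fold (2.95 to 9.71). Within the libraries with low Rn7s6, NeuroD2 over the chimera gave ratios of 5.75 (2.93 to 12.6) for Hoxb1 and 3.16 (1.82 to 5.8) for Hoxb2. By the interval rule 7 genes were higher in NeuroD2 than in the chimera, among them Hoxb1, Hoxb3, Hoxb7, Hoxb8, Hoxb9 and Hoxb13, against 5.57% of all genes, and 0 lower, against 2.43%.

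Hoxb7, Hoxb8 and Hoxb9, genes of thoracic and more posterior identity, had another pattern. Hoxb8 (ENSMUSG00000056648) stood at 0.0486 CPM in GFP, 0.115 in MyoD, 0.226 in the chimera, 1.04 in the chimera at MOI 100, 0.963 in WC, 1.19 in WCS, 3.13 in WCS at MOI 100 and 1.26 in NeuroD2. Hoxb7 (ENSMUSG00000038721) stood at 0.0973 CPM in GFP, 0.154 in MyoD, 0.377 in the chimera, 1.6 in the chimera at MOI 100, 1.32 in WC, 1.83 in WCS, 4.29 in WCS at MOI 100 and 1.71 in NeuroD2. For both genes the 5 libraries of WC, WCS, NeuroD2 and MOI 100 lay above GFP, MyoD and the chimera with no overlap. This held for 4 of the 24 Hox genes, with Hoxa7 and Hoxb4, and for 13.1% of all genes with 10 counts, so the split as such is not particular to Hox genes. The split was drawn from the values of Hoxb7 and Hoxb8. Hoxa7, Hoxb4 and Hoxb8 reached 10 counts only among the 5 higher libraries, so they entered this count through the side where they are high. On the GFP side of the Rn7s6 difference, WC had 13.5-fold more Hoxb7 than GFP (4.9 to 52.0) and 19.8-fold more Hoxb8 (5.02 to 171). WCS had 18.9-fold more Hoxb7 (6.95 to 71.7) and 24.4-fold more Hoxb8 (6.28 to 210). Hoxb9 differed less, at 0.803 CPM in GFP, 2.46 in MyoD, 0.716 in the chimera, 2.01 in the chimera at MOI 100, 1.35 in WC, 1.6 in WCS, 3.13 in WCS at MOI 100 and 2.86 in NeuroD2. It was higher in MyoD than in GFP (ratio 3.06, 1.98 to 4.81). Hoxb7 and Hoxb8 had 4 counts or fewer in both of these libraries, and Hoxb13 stood at 0.614 CPM in MyoD against 0.243 in GFP. Hoxb4, a gene of the hindbrain and spinal cord boundary, stood at 0.442 to 0.694 CPM in the same 5 libraries and at 0 to 0.188 CPM in GFP, MyoD and the chimera. Hoxb4, Hoxb7 and Hoxb8 were the genes called higher over GFP in WC (8.82% of all genes) and also in WCS (8.75%). Called lower were 1 gene in WC (4.1%) and 2 in WCS (4.74%), with Hoxd1 among them in both.

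**Figure D4:**
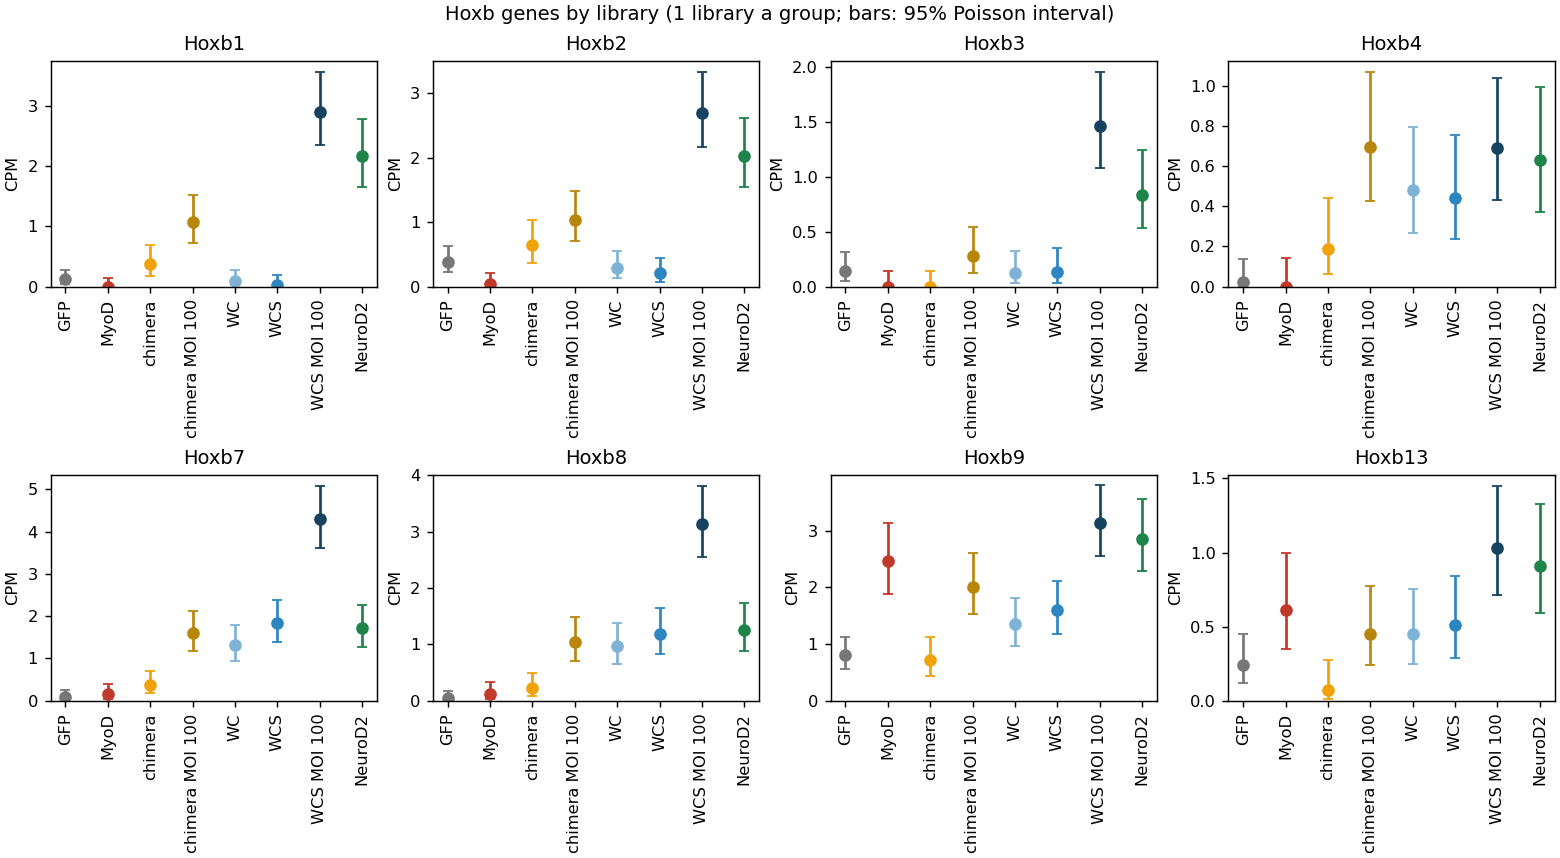
CPM of 8 HoxB genes in each library (points, 1 library a group) with the 95% Poisson interval of the count (bars). Hoxb1 and Hoxb2 are low in WC and WCS, at 0.034 to 0.289 CPM, whereas Hoxb7 and Hoxb8 are at 0.963 to 1.83 CPM there, and 7 of the 8 genes have their highest value in WCS at MOI 100.

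The libraries with higher Hoxb7 and Hoxb8 were also those with more neuronal RNA. The 6 of 6 neuronal markers summed to 148 CPM in GFP, 175 in MyoD, 528 in the chimera, 1940 in the chimera at MOI 100, 1320 in WC, 1490 in WCS, 3770 in WCS at MOI 100 and 2340 in NeuroD2. Spinal motor neuron markers, 4 of 4 measured, summed to 0.754 CPM in GFP, where Isl1 had 0 counts, 0.998 in MyoD, 2.11 in the chimera, 4.11 to 5.87 in WC, WCS and the chimera at MOI 100, 15.3 in NeuroD2 and 16.2 in WCS at MOI 100. Mnx1 did not follow this sum throughout. It stood at 0.438 CPM in GFP, 0.73 in MyoD, 0.151 in the chimera, 0.416 in the chimera at MOI 100 and 0.629 in NeuroD2. In WC and both WCS libraries it stood at 0.995 to 4.79 CPM. The part of neurons in the HoxB values was not tested.

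The chimera without the MOI label had less HoxD RNA than GFP and no HoxB or HoxA gene called higher. Its HoxD sum was 5.76 against 11.1 CPM, 1.93-fold lower (1.6 to 2.33), and the sum over all Hox genes 1.45-fold lower (1.26 to 1.66), while HoxB was at a ratio of 1.39 (0.988 to 1.95). Both chimera libraries lie across the Rn7s6 difference from GFP, and no control library lies on their side. Over GFP the interval rule called 0 genes higher, against 7.29% of all genes, and Hoxd1 and Hoxd3 lower, against 4.59%. At MOI 100 the chimera had 6 genes higher over GFP, Hoxa2, Hoxa3, Hoxb1, Hoxb4, Hoxb7 and Hoxb8, against 15.2%, and Hoxd1 lower, against 10.3%. The largest of these ratios was 28.5 for Hoxb4 (4.56 to 1180), with 20 counts against 1. The size rule, which asks for 5 CPM, called 0 Hox genes in each of the comparisons named next, while the whole table gave 2.17% higher and 0.72% lower in the chimera over GFP, 5.4% and 2.51% in the chimera at MOI 100 over GFP, 2.57% and 0.605% in WC over GFP, 2.54% and 0.9% in WCS over GFP, and 5.47% and 3.0% in WCS at MOI 100 over GFP. It gave 0.47% higher and 0.566% lower in WC over the chimera, 0.592% and 0.753% in WCS over the chimera, and 0.585% and 1.22% for the same pair at MOI 100. For MOI 100 over no label it gave 0.727% and 0.199% in the chimera and 0.714% and 0.463% in WCS. With so few Hox genes at 5 CPM these 0 counts say little.

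WC and WCS were set against the chimera to ask what the mutations change. In WC over the chimera Hoxd9 was called higher by the interval rule (2.69% of all genes), at 0.899 against 0.113 CPM, and 0 genes lower (2.09%). In WCS over the chimera Hoxb7, Hoxb8 and Hoxd9 were higher (2.92%) and Hoxc5 lower (2.64%), with 0 counts in WCS against 12. Hoxc5 shares exon bases with Hoxc10. These comparisons cross the Rn7s6 difference, and WCS over the chimera with both at MOI 100 does not. There Hoxa3, Hoxb3, Hoxb6 and Hoxc8 were higher (3.31%) and 0 lower (3.68%). Hoxb6 and Hoxc8 reached 10 counts only in WCS at MOI 100, and without them 2 of 21 genes were higher (3.19%). The ratios of Hoxb7, Hoxb8 and Hoxd9 were 2.69 (1.91 to 3.84), 3.01 (1.98 to 4.69) and 2.51 (1.13 to 6.11). Hoxd1 was lower in WCS at both labels, 3.19-fold (1.38 to 8.25) without it and 4.27-fold (1.81 to 11.6) at MOI 100.

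The chimera and WCS libraries, 4 in all, entered one model with a term for the construct and one for the label (edgeR, quasi-likelihood test). Of the Hox genes 15 passed its filter on low counts. Hoxb7 and Hoxb8 rose in WCS against the chimera, with log2 fold changes of 1.76 (edgeR adjusted p = 0.027) and 1.87 (edgeR adjusted p = 0.028), 2 of 15 genes against 5.84% of all 16079 tested. No Hox gene fell, against 5.49%, and 7 had an unadjusted p under 0.05. Just past the threshold were Hoxd1 at -1.86 (edgeR adjusted p = 0.051), Hoxd3 at 1.27 (0.060) and Hoxd9 at 2.01 (0.071). The filter asks for about 10 counts in more than 1 library. Hoxd9, with 3 and 9 counts in the chimera libraries, and Hoxd1, with 8 and 7 in the WCS libraries, passed it only through the construct where each is high. Hoxb8, with 6 and 30 counts in the chimera libraries, passed it only with the WCS libraries, where it is high. The fit has 1 residual degree of freedom, so its p-values rest on how far the 4 libraries depart from a sum of the terms, not on how cultures vary, and a called gene can still differ in size between the pairs. With any 1 of the 4 libraries left out 0 Hox genes were called for construct or MOI label, in fits that could hold only 1 of these terms, and the fit of all 4 libraries with 1 term also called 0. These fits called at most 0.614% of all genes, and most of them 0, so their 0 is no measure of the Hox genes. WCS without the MOI label is the only one of the 4 with high Rn7s6.

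MOI 100 went with higher HoxA and HoxB levels in both constructs. In the same fit 7 genes rose at MOI 100, against 13.4% of all genes, and 0 fell, against 12.2%, with 9 at an unadjusted p under 0.05. Among them were Hoxa2, at a log2 fold change of 1.98 (edgeR adjusted p = 0.030), Hoxa3 at 3.03 (0.047), Hoxb1 at 3.20 (0.036), Hoxb7 at 1.55 (0.025), Hoxb8 at 1.67 (0.025) and Hoxb9 at 1.20 (0.045). Hoxb2 at 2.08 was not called (edgeR adjusted p = 0.068). The HoxD genes gave -0.04 for Hoxd1, 0.36 for Hoxd3, 0.31 for Hoxd8 and 0.22 for Hoxd9, and none was called. The median log2 fold change was 1.44 over the 15 genes, beside 0.01 over all genes. Hoxa2 and Hoxa3 had under 10 counts in both libraries without the label. Hoxb1 had 10 counts in the chimera and 1 in WCS there, and Hoxb8 had 6 and 35, so each reached 10 in only 1 of them. These genes therefore passed the filter of the fit only with the MOI 100 libraries, where they are high. The 7 calls and this median include them. The chimera at MOI 100 over the chimera, both with low Rn7s6, gave ratios of 4.24 for Hoxb7 (2.11 to 9.42), the 1 gene called there by the interval rule (4.63% of all genes higher and 1.87% lower), 4.61 for Hoxb8 (1.89 to 13.5), 2.81 for Hoxb9 (1.65 to 5.0), 2.86 for Hoxb1 (1.36 to 6.53) and 1.04 for Hoxd8 (0.78 to 1.38). WCS at MOI 100 over WCS gave 8 higher (5.2%), among them Hoxa3, Hoxa7, Hoxb1, Hoxb2, Hoxb3, Hoxb6 and Hoxc8, and Hoxd11 lower (3.6%), and it crosses the Rn7s6 difference. When the 10 counts had to be reached in another library, 6 were higher (5.04%) and 0 lower (3.59%). Hoxb1 was 85.8-fold higher in that pair (15.0 to 3420), from 93 counts against 1. The neuronal markers rose at MOI 100 in 6 of 6 cases and the pluripotency markers fell in 5 of 5, and their part in the Hox values was not tested.

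**Figure D5:**
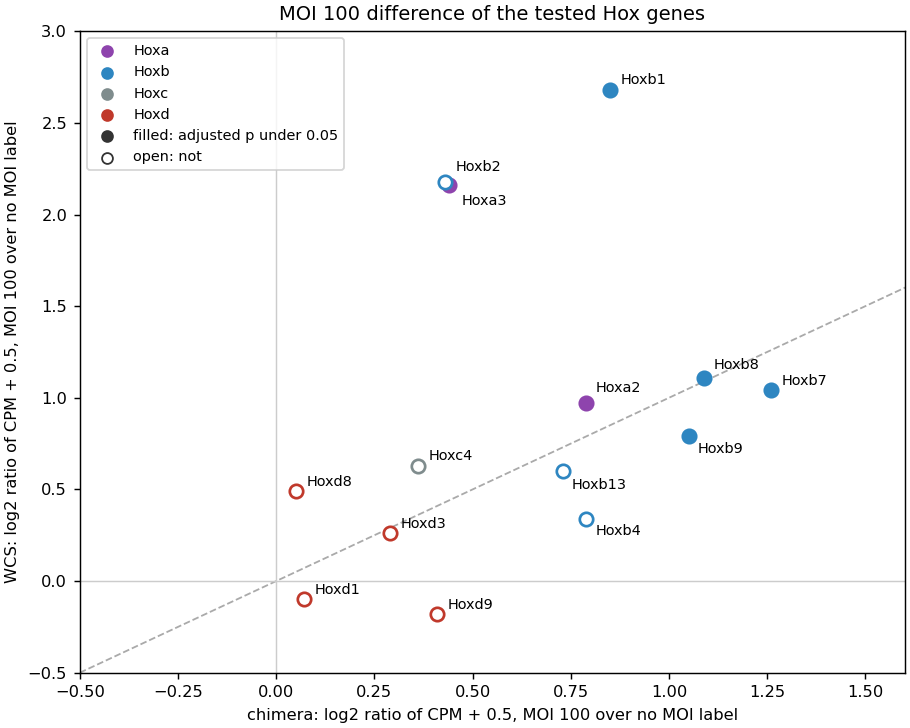
Log2 ratio of CPM + 0.5 at MOI 100 over no MOI label in the chimera (x axis) and in WCS (y axis) for the Hox genes tested and reported. Filled points have an edgeR adjusted p under 0.05, and the dashed line marks equal ratios. The HoxA genes and the 7 HoxB genes shown have positive ratios in both constructs, and the 4 HoxD genes lie within 0.5 of 0 on both axes.

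WCS at MOI 100 held the broadest set of Hox transcripts. Of the 36 genes with any count, 20 had their highest CPM there and 7 in MyoD, while of all 25014 genes with a count 18.9% were highest in WCS at MOI 100 and 17.4% in MyoD. Of the 38 genes 5 had 0 counts there and 10 to 16 in each other library, and of all genes with a count 15.9% had 0 there and 16.7% to 19.4% in each other library. By the interval rule 14 of 24 genes were higher than in GFP, against 16.6% of all genes, and Hoxd1 was lower, against 12.3%. When the 10 counts had to be reached in another library, 11 of 21 genes were higher, against 16.2%. The median log2 ratio of the 24 genes was 1.07, beside 0.01 over all genes, and Hoxb5, Hoxb6 and Hoxc8 passed the minimum of 10 counts only through this library. Hoxb8 was 64.4-fold higher (17.4 to 539) and Hoxb7 44.1-fold (16.8 to 164). Hoxa3, a gene of the pharyngeal arches and hindbrain, stood at 0.0243 CPM in GFP, 0.23 in MyoD, 0.226 in the chimera, 0.486 in the chimera at MOI 100, 0.0963 in WC, 0.034 in WCS, 1.88 in WCS at MOI 100 and 0.943 in NeuroD2. Its ratio over GFP of 77.3 (13.4 to 3100) rests on 60 counts against 1, and its exons overlap the antisense transcripts Hoxaas2 and Hoxaas3. Hoxaas3 had 63 counts in WCS at MOI 100, 16 in NeuroD2 and 0 to 8 elsewhere. Without a known strand setting its reads and those of Hoxa3 cannot be told apart. Within the libraries with low Rn7s6, WCS at MOI 100 over the chimera gave 13 genes higher (8.01% of all genes) and 0 lower (5.45%), or 10 higher (7.81%) when the 10 counts had to be reached in another library, with ratios of 13.9 for Hoxb8 (6.15 to 38.7), 11.4 for Hoxb7 (6.01 to 24.3) and 8.32 for Hoxa3 (3.61 to 23.6).

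A few genes of the middle of the clusters had counts almost only in that library. Hoxc8, which in the mouse patterns the thoracic spine and limb-level motor neurons, had 26 counts or 0.815 CPM in WCS at MOI 100, 1 count in WCS and 0 in the other 6, and so was at least 11.2-fold higher than in GFP. Hoxb6 had 18 counts there, 3 in NeuroD2, 1 in MyoD and 0 in the other 5, at least 7.73-fold higher than in GFP. Hoxb5 had 11 counts there, 1 each in the chimera at MOI 100 and in WCS, and 0 in the other 5, at least 4.72-fold higher than in GFP. Hoxa7, whose exons also overlap Hoxaas3, stood at 1.03 CPM in WCS at MOI 100 and 0.0377 to 0.417 CPM elsewhere. Hoxb13, the most posterior HoxB gene, stood at 1.03 CPM there, 0.908 in NeuroD2 and 0.0753 to 0.614 in the other 6.

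Hoxc4 had the smallest range of the 15 genes that reached 1 CPM, 0.86 on the log2(CPM + 0.5) scale. This gene, known for cervical identity, stood at 2.21 CPM in GFP, 1.19 in MyoD, 1.88 in the chimera, 2.57 in the chimera at MOI 100, 1.44 in WC, 1.36 in WCS, 2.38 in WCS at MOI 100 and 2.13 in NeuroD2. Its ratio over GFP was 0.538 in MyoD (0.346 to 0.817) and 0.963 in NeuroD2 (0.685 to 1.35). Among the most posterior genes Hoxd13, a digit and genital gene, stood at 0.104 to 0.608 CPM, highest in GFP, and Hoxd11, a gene of the forearm and kidney, at 0 to 0.543 CPM, highest in WCS. The 14 genes under 10 counts everywhere were Hoxa4, Hoxa5, Hoxa6, Hoxa9, Hoxa10, Hoxa11, Hoxa13, Hoxc6, Hoxc9, Hoxc10, Hoxc11, Hoxc12, Hoxc13 and Hoxd12. Of these Hoxc12 and Hoxd12 had 0 counts in all 8 libraries, where the floor of 3 counts corresponds to 0.073 CPM in GFP and 0.115 CPM in MyoD.

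Neighbours and regulators of the clusters were read from lists. Of all genes tested in the 4-library fit, 5.84% rose and 5.49% fell in WCS against the chimera, and 13.4% rose and 12.2% fell at MOI 100. Of 15 tested genes flanking the clusters, Evx1, Evx2 and Snx10 rose in WCS against the chimera and 0 fell. Evx2, a homeobox gene next to the posterior end of HoxD that in the spinal cord marks interneurons, stood at 0.0243 CPM in GFP, 0 in MyoD and the chimera, 0.0347 in the chimera at MOI 100, 3.92 in WC, 4.21 in WCS, 8.71 in WCS at MOI 100 and 4.26 in NeuroD2. It was therefore near 0 in GFP, MyoD and both chimera libraries and at 3.92 CPM or more in the other 4, and its log2 fold change in WCS against the chimera was 8.22 (edgeR adjusted p = 0.00039). Evx1, its counterpart beside HoxA, rose by 2.60 (edgeR adjusted p = 0.028). In the chimera and the chimera at MOI 100 Evx2 had 0 and 1 counts and Evx1 had 1 and 8. Both therefore passed the filter of the fit only through the WCS libraries, where they are high. At MOI 100 Nfe2l3 and Snx10 rose and Hnrnpa1 fell. Of the 4 noncoding transcripts of the clusters that passed the filter of the fit, 0 were called for construct, and Hoxb3os, antisense to Hoxb2 and Hoxb3, rose at MOI 100 by 2.32 on the log2 scale (edgeR adjusted p = 0.031). It stood at 0.511 CPM in GFP, 0.0384 in MyoD, 0.678 in the chimera, 1.46 in the chimera at MOI 100, 0.385 in WC, 0.374 in WCS, 4.39 in WCS at MOI 100 and 2.97 in NeuroD2, and was high in the same libraries as Hoxb2 and Hoxb3. Without a known strand setting their reads cannot be told apart. In all 15 Hox genes share exon bases with another gene, and Hoxb1, Hoxb7, Hoxb8, Hoxb9, Hoxd1, Hoxd8 and Hoxd9 share none.

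Of 9 Pbx, Meis and Prep genes, whose proteins bind DNA with Hox proteins, 0 were called for construct and 1, Meis3, rose at MOI 100 (log2 fold change 0.76, edgeR adjusted p = 0.010). Meis1 stood at 6.81 CPM in GFP, 12.9 in MyoD and 18.3 to 30.0 in the other 6. Among 11 tested Cdx and axial progenitor genes Evx1, Evx2 and Nkx1-2 rose and Fgf8 fell in WCS against the chimera. The shares over all genes were 5.84% higher and 5.49% lower for construct, and 13.4% and 12.2% for MOI 100. At MOI 100 Cdx1, Cdx2, Gdf11 and T rose and 0 fell. Cdx2, a direct regulator of trunk Hox genes that is named here after its values were seen, stood at 0 CPM in GFP, 0.115 in MyoD, 0.0753 in the chimera, 0.729 in the chimera at MOI 100, 0.128 in WC, 0.0679 in WCS, 2.32 in WCS at MOI 100 and 1.26 in NeuroD2. It was high in the libraries where Hoxb1 was high and low in WC and WCS. The trunk genes Hoxb7, at 1.32 and 1.83 CPM, and Hoxb8, at 0.963 and 1.19 CPM, were not low in WC and WCS. At MOI 100 Cdx2 rose by 4.30 (edgeR adjusted p = 0.0051). Under 3 counts in the chimera and WCS without the label, it passed the filter of the fit only through the MOI 100 libraries. The part of Cdx2 in the Hox values was not tested.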

How the data were processed

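The values deposited by the authors are whole-number read counts for each Ensembl identifier, not normalized. CASAVA 1.8.2 and TopHat2 2.0.8 with mm9 are named, per the submitters' processing notes. How reads were assigned to genes, with which annotation and on which strand, is not given in the sources used here. Per the labels' protocols RNA was selected with oligo-dT.

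Symbols were matched by identifier for 32850 genes (87.5%). The members, the gene lists and the tests were chosen with earlier results of these data known. CPM were scaled by TMM (edgeR 4.0.16, R 4.3.3) over the 8 libraries, and genes at 1 CPM in at least 1 library counted as measured for the size rule. Ratio intervals are exact conditional binomial (Clopper-Pearson) intervals at 95%, and intervals of single levels exact Poisson ones. A count of 0 was set to a floor of 3 counts per library for folds. The 4-library fit used edgeR's quasi-likelihood test after filterByExpr, with Benjamini-Hochberg adjustment over all genes tested and a threshold of 0.05. Alternatives were DESeq2 1.42.0, total counts, other filters, pseudocounts and folds, and fits without each library. The interval rule, and the comparisons of NeuroD2 and of WCS at MOI 100 with the chimera, were added after seeing the data. Both kinds of call were tested on simulated data, in which the changed genes had higher expected counts than most Hox genes had here. Those tests therefore do not cover calls at the low counts of most Hox genes. Python 3.11.15 with scipy 1.17.1, pandas 2.3.3, numpy 2.4.6 and matplotlib 3.10.9 was used.

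All Hox genes could be named, and 1 result is not reported here. From each of 14 lists the 4 measured genes with the largest range of log2(CPM + 0.5) could be named, with others as marked or where a count of calls of 5 or fewer is given. The lists were Pbx, Meis and Prep cofactors, Cdx and axial progenitors, retinoid signalling, hindbrain regulators, Polycomb, trithorax, noncoding transcripts, flanking genes, ParaHox genes and the markers of pluripotent cells, muscle, neurons, spinal motor neurons and neural crest. Levels between genes were compared only per kb of exon in GENCODE M21, which is on another build than mm9. Scaling to total counts in place of TMM shifted the median of all genes by 0.21 on the log2 scale in WCS at MOI 100 over GFP, 0.15 in NeuroD2 over GFP, -0.14 in MyoD over NeuroD2 and 0.13 in the chimera at MOI 100 over GFP and in WCS at MOI 100 over WCS.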

Additional observations from a re-analysis of the deposited data

Results flagged for a closer look

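The difference between WCS and the chimera went in opposite directions without and with the MOI label for Hoxb1 and Hoxb2. Without the label the ratio of WCS over the chimera was 0.0902 for Hoxb1 (0.00208 to 0.634, from 1 against 10 counts) and 0.318 for Hoxb2 (0.103 to 0.846, from 6 against 17 counts). At MOI 100 it was 2.71 for Hoxb1 (1.79 to 4.21, from 93 against 31 counts) and 2.59 for Hoxb2 (1.69 to 4.06, from 86 against 30 counts). The difference between the pairs was not tested. WCS without the MOI label stood at 14.4 CPM of Rn7s6, against 0.565 to 1.28 CPM in the other 3 libraries, and the part of this in the reversal was not tested.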

How the results depend on the processing

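No paired analysis was possible because each group has 1 library and the labels give no replicate numbers. With the size rule, MyoD over GFP called 2 Hox genes, which became 1 with a pseudocount of 2 CPM and 0 at 8-fold, and MyoD over NeuroD2 called 3, which became 1 with that pseudocount. Without the 5 CPM minimum the rule called 2 genes in NeuroD2 over GFP, 1 in WC over GFP, 1 in WCS over GFP, 5 in WCS at MOI 100 over GFP, 5 in MyoD over NeuroD2 and 3 in WCS at MOI 100 over WCS, each of 15. Of all measured genes it then called 7.24%, 3.96%, 4.26%, 10.4%, 8.36% and 1.48%. The interval rule called 1 gene in place of 2 in the chimera over GFP with total counts, and 2 in place of 4 in WCS over the chimera at MOI 100 when the 10 counts had to be reached in another library, an alternative chosen after seeing the data.

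In the 4-library fit 2 Hox genes were called for construct, with 11.3% of all genes. DESeq2's Wald test called 1 (Hoxb7; 10.2% of all genes), edgeR with DESeq2 size factors 5 (4 higher and 1 lower; 13.0%), the fit with WC added as a mutant 6 (5 higher and 1 lower; 18.5%), the fit without a filter 2 (7.15%) and the fit without the MOI term 0 (3 at an unadjusted p under 0.05). For the MOI label 7 were called, with 25.5% of all genes. DESeq2's Wald test called 1 (Hoxb1, 19.6%), edgeR with DESeq2 size factors 8 (27.9%), the fit with WC 10 (41.0%), the fit without a filter 5 (15.6%) and the fit without the construct term 0 (4 at an unadjusted p under 0.05). Leaving out 1 library at a time, in fits with only the term tested, gave 0 to 0 calls for either term and at most 0.614% of all genes, and a lone library was assumed to vary like the others. At an unadjusted p under 0.05 these fits had 0 to 4 genes for construct and 0 to 9 for the MOI label. Of the ratios of single genes under other scalings and pseudocounts 285 stayed within the counting interval of the main value or within 0.05 of it on the log2 scale, 76 moved further, and 0 of those called reversed. Per kb Hoxd8 was the highest Hox gene in 6 libraries, and by CPM alone in 7. A level of 3 counts, 0.073 to 0.115 CPM, limits what can be said of the 14 scarcest genes.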

Other observations

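Retinoid genes, which carry the signal best known to open the 3′ ends of the clusters, moved in both directions. Beside the counts of this section, the fit called 5.84% of all genes higher and 5.49% lower for construct, and 13.4% and 12.2% at MOI 100. Of 18 tested, Crabp1 and Crabp2 rose and Nr2f2, Rxra and Rxrg fell in WCS against the chimera in the edgeR fit, while at MOI 100 there were 2 higher, Cyp26b1 and Stra6, and 6 lower. Cyp26b1, an enzyme that degrades retinoic acid, stood at 0.413 CPM in GFP, 0 in MyoD, 2.67 in the chimera, 11.5 in the chimera at MOI 100, 2.76 in WC, 2.79 in WCS, 12.7 in WCS at MOI 100 and 7.2 in NeuroD2, and was highest in both MOI 100 libraries. Of 27 Polycomb genes, 0 rose and Phf19 fell for construct, and at MOI 100 there were 2 higher, Bmi1 and Pcgf3, and 8 lower, Cbx7 with a log2 fold change of -1.42 (edgeR adjusted p = 0.0039) among them. Cbx7, a chromodomain subunit of Polycomb complex 1, stood at 54.0 CPM in GFP, 34.0 in MyoD and 5.9 to 24.2 in the other 6. Of 12 trithorax and demethylase genes 0 were called for construct, and at MOI 100 Kdm6b, Kmt2a and Kmt2c rose and Wdr5 fell.

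Of 12 hindbrain regulators tested, En2 and Gbx2 rose and Vgll2 fell for construct, and En2 rose and Otx2 fell at MOI 100. Of 6 tested ParaHox and related genes, Gbx2 and Mnx1 rose and Meox1 fell for construct, and Mnx1 rose at MOI 100. Mnx1, a homeobox gene of motor neurons, stood at 4.79 CPM in WCS at MOI 100 and 0.151 to 1.02 CPM in the other 7. Of the marker lists, 6 of 6 muscle genes fell for construct and 2, Myog and Ttn, rose at MOI 100. Among neuronal genes 4 of 6 rose for construct, and among spinal motor neuron genes Mnx1 did, with Isl1 and Mnx1 rising at MOI 100. No pluripotency gene was called for construct, and no neural crest gene for either term. Evx1, Evx2, Gbx2 and Mnx1 are each in a pair of lists.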
